A study of Mus musculus with 56 samples.

Results

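The collagen genes of mouse gastrocnemius, a calf muscle, were followed over the day under 2 feeding schedules. They are the genes whose Entrez identifier maps to a mouse symbol made of Col, a number, the letter a and a number. The RNA table of 19072 genes held 44 of them, which is every gene of that form in the RefSeq annotation, and 36 had a mean of at least 1 CPM and were tested. CPM are recovered read counts per 1000000 of the library size that the authors used. The muscle came from female C57BL/6J mice, 9 weeks old at collection, with lights on for 12 h of each 24. All of them ate freely for 7 days and then had food for 7 days in the light phase only (daytime-restricted feeding, DRF) or in the dark phase only (nighttime-restricted feeding, NRF, the reference here). Muscle was taken at zeitgeber time (ZT, hours from lights on) 0, 4, 8, 12, 16, 20 and 24, with 4 libraries in each of the 14 groups. The study asked how feeding time shapes daily rhythms of muscle RNA. The labels do not say that the 4 libraries of a group came from separate mice, so p-values measure the spread between these libraries, which may in part be technical.

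Collagens are triple helices of 3 chains, each the product of a Col gene. Fibrillar collagens (types I, III, V, XI and others) build the cables of tendon and of the sheaths around muscle and its fibres, with types V and XI inside or on the fibril. Network collagens, chiefly type IV, form the basement membrane around each muscle fibre and capillary, beaded filaments of type VI link that membrane to the fibrils, and FACIT collagens (fibril-associated, such as types XII, XIV and XXII) sit on fibril surfaces or at junctions such as the one between muscle and tendon. In muscle the chains come mostly from fibroblasts, tendon cells, vessel cells and Schwann cells rather than from the fibre itself.

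The 56 libraries held 28173235 to 36183625 recovered reads, and all 44 collagen genes came out in whole reads, which means within 0.02 of a whole number in at least 90% of the libraries with a value above 0. No library repeated another of its own group within sampling noise. Markers of the muscle fibre summed to between 95110 and 207546 CPM in every library. A gene with a value above 0 in fewer than 4 libraries was counted as 0. Markers of skin keratinocytes, counted in this way, summed to at most 1.47 CPM, and 3 of the 4 were such genes. The markers of cartilage cells other than Col2a1, counted in the same way, summed to at most 0.393 CPM. In bulk tissue, fewer cells of a type and less RNA per cell cannot be told apart.

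Per kilobase of the principal transcript, the fibrillar genes took 61.4% of the summed collagen level, beaded filaments 16.6%, networks 14.1%, FACIT genes 3.95% and multiplexins (types XV and XVIII) 3.31%. Type I led, with 96.6 ± 44.3 CPM per kilobase for Col1a2 and 79.1 ± 38.1 for Col1a1 (mean ± SD over 56 libraries), followed by Col3a1 at 55.9 ± 24.05. Col4a1 (33.2 ± 9.83), Col6a1 (32.5 ± 7.65) and Col6a2 (27.97 ± 7.70) came next and overlapped in their spread. Col4a2 stood at 22.7 ± 5.92 CPM per kilobase. Below them Col15a1 (10.9 ± 3.002), Col5a3 (8.83 ± 3.50) and Col6a3 (8.34 ± 2.27) formed a second overlapping set. The least abundant gene that was tested was Col2a1 at 1.19 CPM, the classical cartilage collagen, and the most abundant one that was not tested was Col6a5 at 0.834. The other untested genes were Col4a6, Col17a1, Col9a2, Col25a1, Col9a3, Col6a4 and Col10a1, the last of these at a mean of 0.0150 CPM.

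The ratio between chains of 1 type was close over the 56 libraries for some pairs and wide for others. Col1a1 per kilobase was 0.601 to 0.931 times Col1a2, with a median of 0.817. Col4a1 was 1.22 to 1.60 times Col4a2 and Col6a1 was 0.995 to 1.32 times Col6a2. Col11a1 was 0.214 to 0.564 times Col11a2, Col4a3 was 0.675 to 2.32 times Col4a4, and Col5a3 was 0.621 to 2.64 times Col5a1. Between types Col3a1 was 0.309 to 1.44 times Col1a1, and Col1a1 was 0.714 to 6.21 times Col4a1.

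Feeding by day or by night left the mean level of most collagen genes without a detectable difference. On average over the day 2 of the 36 passed the test (5.56%), both lower in DRF, against 15.9% of all 12025 genes tested. For calls lower in DRF alone the background was 7.53%, and none of the 36 was higher in DRF, where it was 8.35%. The estimates leaned one way all the same: 30 of 36 were lower in DRF, against 6086 of all 12025 genes. The median difference was -0.11 on the log2 scale against -0.00 for all genes. The 36 members share part of their spread between libraries, so they are not 36 independent estimates. With total reads as the library size 34 of 36 were lower, the members' median was -0.17, that of all genes moved to -0.07, and 5 members passed (Col4a3, Col20a1, Col24a1, Col27a1 and Col28a1). That scaling moved the calls over all genes from 1004 higher and 905 lower to 196 higher and 3303 lower. With the trend of each library along gene length removed, 27 of 36 were lower and the members' median was -0.05. At an unadjusted p under 0.05, 4 of the 36 differed, all lower in DRF, against 32.1% of all genes. Of the 8 muscle fibre markers Acta1 and Ckm were higher in DRF (by 0.29 and 0.24, limma adjusted p = 0.00464 and 0.024). Scx was lower (log2 difference -0.22, limma adjusted p = 0.0223), the only 1 of 8 tenocyte markers to pass, with a list median of -0.09. Rgs5 was lower (-0.19, 0.0309), the only 1 of 6 pericyte and smooth muscle markers to pass, with a list median of -0.04. The part of these cell types in the collagen differences was not tested.

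Col4a3 (gene 12828, chromosome 1, 82586921 to 82722059), a chain of the basement membranes of kidney and lung that is scarce in muscle, was one of these. It ranged from 2.17 to 4.90 CPM in the 28 NRF libraries (median 3.26) and from 1.40 to 3.87 in the 28 DRF libraries (median 2.63). The ranges overlapped, while the mean over the day was lower in DRF by a log2 difference of -0.21 (SE 0.05, limma adjusted p = 0.00733). The gap was widest at ZT4, where NRF held 3.01, 3.02, 3.50 and 3.55 CPM and DRF held 1.51, 1.71, 2.06 and 2.34. No DRF library reached the lowest NRF library there, and the difference of -0.56 (SE 0.14) passed the test with a limma adjusted p of 0.0238. Of all genes 0.973% passed at ZT4. With total reads as the library size the difference at ZT4 no longer passed (0.0652), while the difference over the day passed under every alternative run. The neighbouring and oppositely oriented Col4a4, which makes its partner chain, differed by -0.07 (SE 0.07, limma adjusted p = 0.491). Their annotated ends overlap, as do those of Col4a1 and Col4a2, and no step that keeps the strand is named, so reads in the overlaps cannot be told apart.

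Col27a1 (gene 373864, chromosome 4, 63214009 to 63334991), a fibrillar collagen best known from cartilage, was the other. It had a median of 3.45 CPM in NRF (2.23 to 6.25) and 2.94 in DRF (1.77 to 4.92), a difference of -0.16 (SE 0.06, limma adjusted p = 0.0497). This call was at the threshold. It was lost in 43 of 56 fits that left out 1 library and in 7 of 12 alternatives, with an adjusted p of up to 0.364.

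At single times 1 other member passed. Col28a1 (gene 213945, chromosome 6, 7997100 to 8193709), a beaded-filament relative found around peripheral nerve, held 2.12, 3.19, 3.44 and 3.82 CPM at ZT12 in NRF and 1.05, 1.24, 1.69 and 1.74 in DRF. All 4 DRF libraries were below all 4 NRF libraries, with a log2 difference of -0.76 (SE 0.21, limma adjusted p = 0.0373), where 3.5% of all genes passed. Quantile normalization raised that p to 0.058, and 6 of the 56 fits without 1 library lost it, with an adjusted p of up to 0.156. Summed Schwann cell markers lay between 156 and 390 CPM at ZT12 in NRF and between 114 and 266 in DRF, and their part in this difference was not tested. None of the 36 passed at ZT0, ZT8, ZT16, ZT20 or ZT24, where 1.85%, 0.208%, 10.8%, 2.96% and 5.56% of all genes did. At an unadjusted p under 0.05 the members at these times numbered 2, 1, 0, 1 and 6 of 36, against 13%, 7.27%, 27.7%, 18.8% and 22% of all genes.

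**Figure D1:**
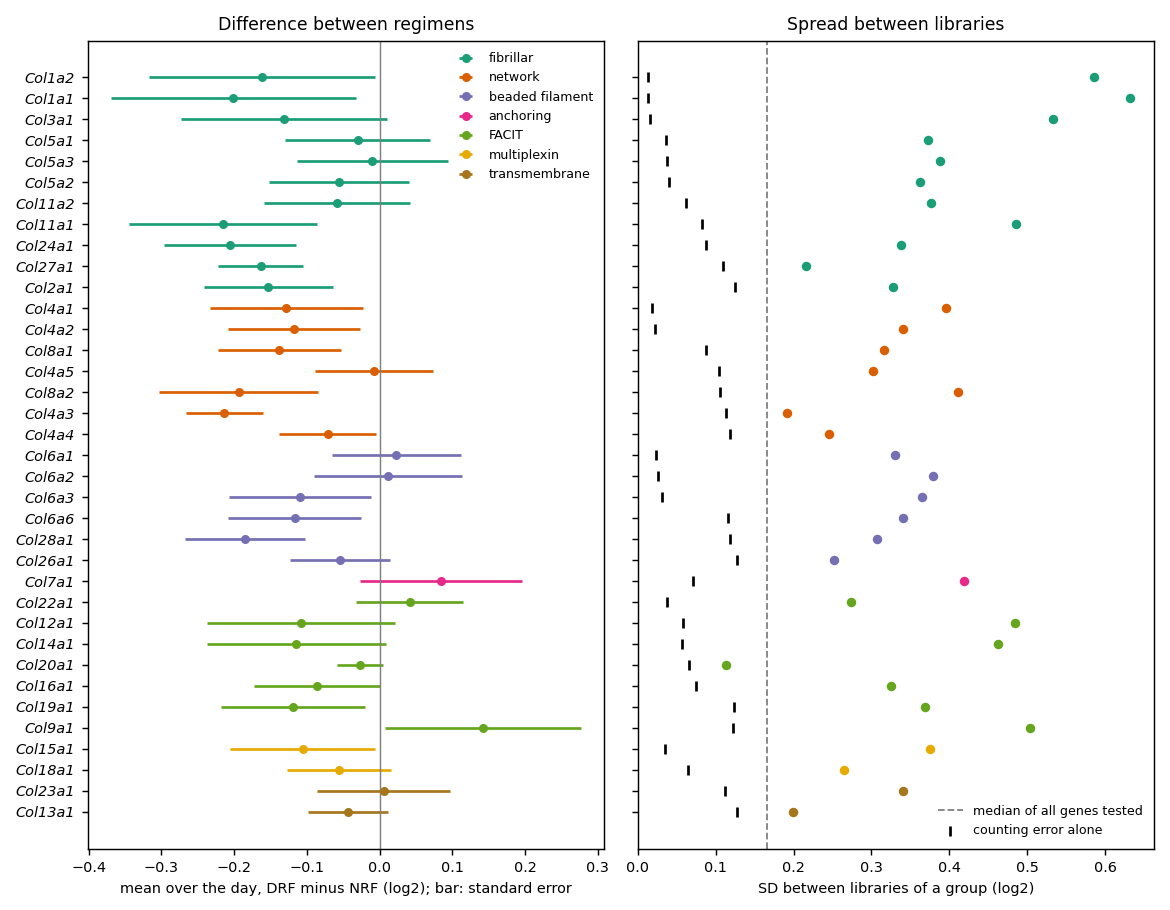
Left, the difference in mean log2 level over the day, DRF minus NRF, for the 36 collagen genes tested, with bars of 1 standard error and colours for the collagen class; 30 of the 36 points lie left of 0. Right, the SD of each gene between libraries of the same group (points), the counting error alone (black marks) and the median SD of all genes tested (dashed line, 0.17); Col1a1 lies farthest right at 0.63 and Col20a1 alone lies left of the line.

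A detected daily rhythm was the exception rather than the rule among collagens. A cosine of 24 h was fitted in each regimen, and the swing is the distance on the log2 scale between the top and the bottom of that curve. The high and low times quoted below were picked from these same values. Whether their libraries overlap is a description and adds no support to a rhythm call. In NRF 4 of 36 members passed the rhythm test (11.1%) against 15.1% of all genes, and in DRF 10 of 36 passed (27.8%) against 48.7%. Both regimens together gave 2 members (9.37% of all genes), Col5a3 and Col27a1. At least 1 regimen gave 12 (54.5% of all genes). At an unadjusted p under 0.05 there were 5 in NRF (26.3% of all genes) and 12 in DRF (56.7%). The median swing of the 36 was 0.31 in NRF and 0.42 in DRF, against 0.16 and 0.26 for all genes. A fitted swing is never negative and grows with the spread between libraries. The median SD between replicates was 0.35 for the members and 0.17 for all genes. The larger swings therefore do not show stronger rhythms, and a wide spread also makes a rhythm harder to detect. Of the 36 fitted peaks, passed or not, 23 in NRF and 28 in DRF lay between ZT10 and ZT20, from late light to the middle of the dark phase. Over all genes 44.2% and 41.2% did. This window was not among the planned tests, and the members share part of their spread. These counts are therefore no test of a common phase.

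Col5a3 (gene 53867, chromosome 9, 20770050 to 20815117) had the strongest rhythm. It encodes a chain of type V collagen, the minor partner that sets fibril diameter, and stands apart from Col5a1 and Col5a2 in being made by few tissues, muscle among them. At ZT0 in DRF its libraries held 69.6, 74.0, 78.5 and 104 CPM, and at ZT12 22.4, 23.8, 25.9 and 29.8. At ZT0 in NRF they held 56.1, 59.7, 79.5 and 119, and at ZT16 23.5, 31.7, 41.8 and 45.7. High and low groups did not overlap in either regimen. The fitted peak lay at ZT0.529 in DRF with a swing of 1.45 (limma adjusted p = 3.86e-07). In NRF it lay at ZT1.51 with 1.07 (0.000206). A difference between the 2 rhythms was not detected (0.412), and the mean over the day differed by -0.01 (SE 0.10). Both rhythms passed under every alternative run and without any single library. Its partners did not pass: Col5a1 had a swing of 0.40 in NRF and 0.11 in DRF (limma adjusted p = 0.334 and 0.884), and Col5a2 had 0.13 and 0.23 (0.896 and 0.576).

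Col27a1 ran the other way, low around lights on and high after lights off. In DRF it held 4.19, 4.58, 4.77 and 4.92 CPM at ZT12 and 1.77, 2.01, 2.25 and 2.86 at ZT24. In NRF it held 3.98, 5.18, 5.42 and 6.25 at ZT16 and 2.57, 2.69, 2.98 and 3.45 at ZT24. Again no high library overlapped a low one. The swing was 0.74 in DRF with a peak at ZT13.3 (limma adjusted p = 2.79e-06) and 0.59 in NRF with a peak at ZT15.5 (0.000566). The test of a difference between the rhythms was not passed (0.167). Both rhythms passed under every alternative run, the score of endothelial markers as a covariate included, where the adjusted p rose to 0.0162 in NRF.

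**Figure D2:**
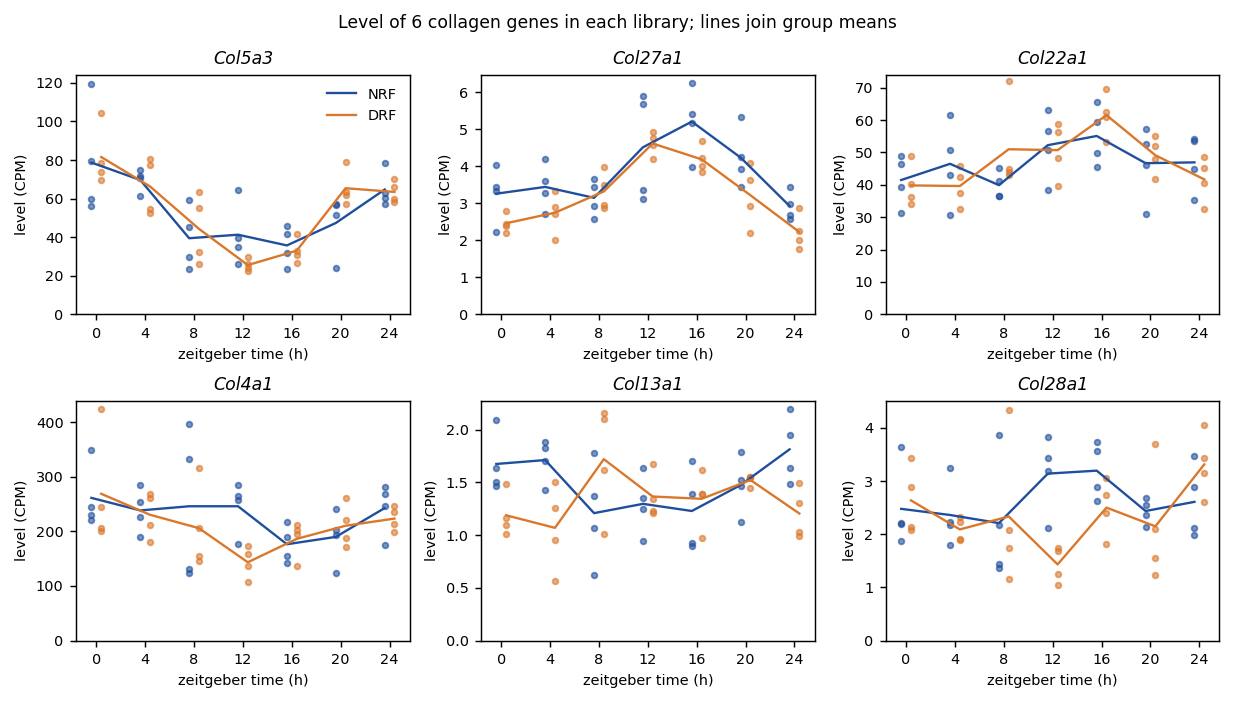
Level in CPM of 6 collagen genes against zeitgeber time, with 1 point per library and lines through group means for NRF (blue) and DRF (orange). Col5a3 is high at ZT0 and low at ZT12 or ZT16 in both regimens, Col27a1 the reverse, and Col28a1 at ZT12 is lower in all DRF libraries than in all NRF libraries.

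The start regions of both genes are shown because they carried the only rhythms called in both regimens. They come from the RefSeq promoter table on GRCm38.p6, which matched 35 of the 44 members and runs from 250 bases before to 50 after the start. The members without a match were Col1a1, Col2a1, Col4a3, Col5a2, Col9a3, Col12a1, Col14a1, Col22a1 and Col26a1. Col5a3 is on the minus strand at chr9:20815018-20815317 and Col27a1 on the plus strand at chr4:63215162-63215461, inside the annotated span of its gene. Both are written 5′ to 3′ with GC boxes (GGGCGG) and CCAAT boxes (CCAAT), searched on both strands, in capitals.
Col5a3: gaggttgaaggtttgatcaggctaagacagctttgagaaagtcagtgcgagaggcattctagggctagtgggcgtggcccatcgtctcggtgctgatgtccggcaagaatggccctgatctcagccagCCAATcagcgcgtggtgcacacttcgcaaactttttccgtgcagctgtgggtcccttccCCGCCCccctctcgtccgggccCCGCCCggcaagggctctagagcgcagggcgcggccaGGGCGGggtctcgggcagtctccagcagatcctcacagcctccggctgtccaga
Col27a1: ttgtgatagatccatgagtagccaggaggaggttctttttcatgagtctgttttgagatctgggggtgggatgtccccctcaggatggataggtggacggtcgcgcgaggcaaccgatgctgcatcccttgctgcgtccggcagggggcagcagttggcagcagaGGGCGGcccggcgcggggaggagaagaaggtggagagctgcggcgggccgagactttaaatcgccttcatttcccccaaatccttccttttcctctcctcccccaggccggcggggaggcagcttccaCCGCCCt
The Col5a3 window held 3 GC boxes and 1 CCAAT box, and the Col27a1 window 2 GC boxes and no CCAAT box. A GC box was present in 22 of the 35 members with a window, or 60.5% of their windows, against 35.7% of all 32851 windows, and a CCAAT box in 13, or 34.2% of windows against 37.4%. The E-box CACGTG, the letters bound by the clock proteins CLOCK and BMAL1, was in no member's window and in 7.15% of all windows. The half-site AGGTCA, common to many nuclear receptors, was in 8 members (21.1% of their windows, against 16.3% of all). These are letter matches in short windows and no record of binding.

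Of type IV, Col4a1 and Col4a2 passed the rhythm test in DRF, while Col4a3, Col4a4 and Col4a5 passed it in neither regimen. Col4a1 (gene 12826, chromosome 8, 11198423 to 11312889) and Col4a2 (gene 12827, chromosome 8, 11312805 to 11449287) make the chains of the universal basement membrane network. Col4a1 held 201, 206, 245 and 424 CPM at ZT0 in DRF and 107, 136, 159 and 173 at ZT12. Col4a2 held 127, 139, 153 and 261, and 84.6, 101.2, 113 and 115. In both genes the ZT12 libraries were all below the ZT0 libraries. The DRF swing was 0.63 for Col4a1, peaking at ZT0.790 (limma adjusted p = 0.0192), and 0.48 for Col4a2, peaking at ZT1.24 (0.0403). In NRF the values were 0.41 (0.384) and 0.49 (0.146), and no difference between regimens was detected (0.371 and 0.405).

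Endothelial markers moved with these rhythms. Of the 7 endothelial genes, 5 passed the rhythm test in NRF (15.1% of all genes) and 6 in DRF (48.7%), all with fitted peaks between ZT22.7 and ZT4.38. Their summed level ran from 331 to 529 CPM at ZT0 in DRF and from 207 to 294 at ZT12. The score of that list as a covariate was an alternative chosen after seeing the data. With it the DRF swing was 0.08 for Col4a1 (limma adjusted p = 0.905) and 0.06 for Col4a2 (0.937). In the same fit Col5a3 had 1.40 in DRF (limma adjusted p = 1.92e-05) and 1.02 in NRF (0.00245). The genes of the list peak near the same hours, so this fit cannot separate cell content from a shared time of day. The part of endothelial cells in these rhythms was not tested. The call for Col4a1 also ended without ZT0 and in 1 of 56 fits without 1 library. The call for Col4a2 ended in 5 of 14 alternatives and in 9 of 56 such fits.

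The shared start of these genes is shown because their levels ran together in all libraries. At the RefSeq starts used for the windows, both genes face away from each other and overlap by 22 bases. The Col4a1 start used, base 11312826, lies inside the annotated span of its gene, so the annotated spans overlap by more. The 300-base windows share 78 bases. The Col4a1 window, on the minus strand at chr8:11312777-11313076 (GRCm38.p6), is written 5′ to 3′ with those 78 shared bases in capitals.
Col4a1: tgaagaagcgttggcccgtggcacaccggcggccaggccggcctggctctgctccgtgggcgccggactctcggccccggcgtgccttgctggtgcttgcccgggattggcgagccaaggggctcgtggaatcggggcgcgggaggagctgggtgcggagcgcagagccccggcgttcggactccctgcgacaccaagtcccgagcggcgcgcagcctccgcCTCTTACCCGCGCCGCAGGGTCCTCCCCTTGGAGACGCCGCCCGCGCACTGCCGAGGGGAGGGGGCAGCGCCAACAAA

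Col15a1 (gene 12819, chromosome 4, 47207655 to 47313167) and Col18a1 (gene 12822, chromosome 10, 77052178 to 77166530), multiplexins of vessel and fibre basement membranes, each passed in 1 regimen. Col15a1 held 72.3, 73.6, 75.4 and 79.0 CPM at ZT4 in NRF and 27.6, 42.3, 48.8 and 66.8 at ZT16, a fitted peak at ZT4.20 and a swing of 0.69 (limma adjusted p = 0.0433). With the endothelial score as a covariate it did not pass (0.143). Col18a1 held 15.1, 15.5, 19.5 and 19.8 CPM at ZT16 in DRF and 10.7, 11.5, 11.8 and 15.7 at ZT24, with a peak at ZT15.4 and a swing of 0.39 (0.0437). Each was lost in 6 of 14 alternatives and in 17 of 56 fits without 1 library.

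Col22a1 (gene 69700, chromosome 15, 71795795 to 72150979) marks the junction of muscle and tendon, where it anchors the fibre end. It held 53.2, 60.8, 62.6 and 69.5 CPM at ZT16 in DRF and 32.6, 37.5, 42.5 and 45.9 at ZT4, with every ZT16 library above every ZT4 library. Its swing was 0.56 with a peak at ZT14.6 (limma adjusted p = 0.00429). In NRF it was 0.32 at ZT15.7 (0.279), and a difference was not detected (0.571). The DRF call held in every alternative except the endothelial score as a covariate (0.0609) and without any single library.

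Among the abundant fibril genes the time of day did not stand out from the spread. Col1a1 (gene 12842, chromosome 11, 94936224 to 94953042) had its highest mean at ZT12 in NRF, where the libraries held 449, 467, 1017 and 1293 CPM, and at ZT16 in DRF with 494, 547, 626 and 711. Its lowest means were at ZT20 in NRF (78.8, 282, 414 and 496) and at ZT4 in DRF (169, 253, 345 and 380). The DRF groups at ZT16 and ZT4 did not overlap, the NRF groups did. The swing was 0.71 in NRF (limma adjusted p = 0.31) and 0.84 in DRF (0.104). Col1a2 (gene 12843, chromosome 6, 4505618 to 4541543) gave 0.70 (0.267) and 0.86 (0.063), and Col3a1 (gene 12825, chromosome 1, 45311538 to 45349706), which softens the fibril, gave 0.52 (0.422) and 0.20 (0.844). The plot of the fibril-forming collagens in each library shows how far replicates lay apart.

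**Figure D3:**
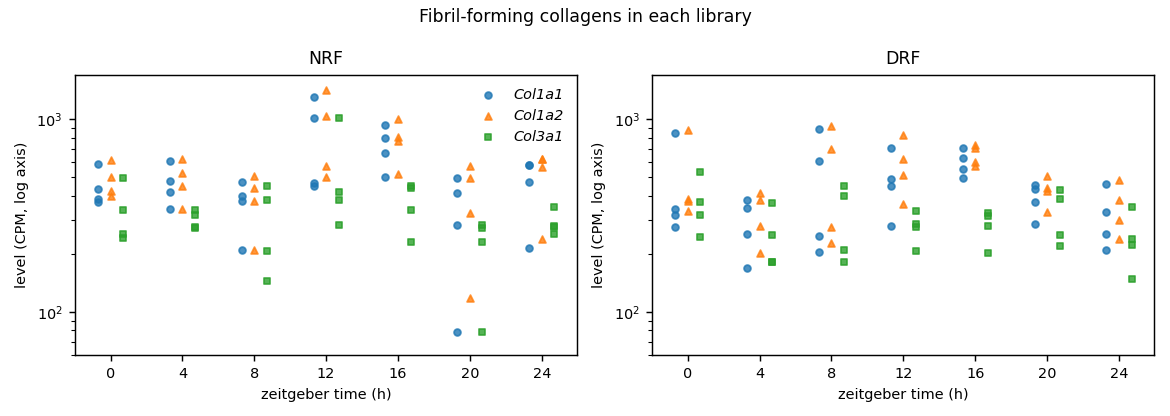
Level of Col1a1, Col1a2 and Col3a1 in each library against zeitgeber time (CPM on a log axis), NRF left and DRF right. Col1a1 and Col1a2 of a library stand at nearly the same height, and the libraries of 1 group spread from 1.25-fold (Col3a1, NRF at ZT4) to 6.29-fold (Col1a1, NRF at ZT20).

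Type XI and type II, the other cartilage fibril genes, passed in DRF. Col11a1 (gene 12814, chromosome 3, 114030479 to 114220756) held 10.02, 10.02, 11.9 and 12.9 CPM at ZT16 and 3.86, 5.34, 5.55 and 5.89 at ZT4 (swing 0.79, limma adjusted p = 0.0467). Col11a2 (gene 12815, chromosome 17, 34038919 to 34066684) held 18.4, 21.5, 22.7 and 24.7 CPM at ZT16 and 9.21, 11.1, 12.9 and 16.7 at ZT24 (0.65, 0.024). Col2a1 (gene 12824, chromosome 15, 97975602 to 98004724) held 1.06, 1.53, 1.78 and 2.46 CPM at ZT16 and 0.238, 0.419, 0.541 and 0.796 at ZT24 (0.65, 0.0111). The groups named, picked from these values as high and low, did not overlap in these 3 genes. Their fitted peaks lay at ZT13.3, ZT14.2 and ZT13.2. The call for Col11a1 was lost in 7 of 14 alternatives and in 18 of 56 fits without 1 library, that for Col11a2 in 4 of 14 and in 2 of 56, and that for Col2a1 in 2 of 13 and in 0 of 56.

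Tendon markers moved with these 3 genes. The 8 tenocyte markers summed to between 519 and 871 CPM at ZT16 in DRF, to between 287 and 448 at ZT4 and to between 350 and 656 at ZT24. However, only Chad of the 8 passed the rhythm test in DRF, against 48.7% of all genes. With the tenocyte score as a covariate, chosen after seeing the data, Col11a1 had a swing of 0.19 (limma adjusted p = 0.324), Col11a2 0.23 (0.147) and Col2a1 0.31 (0.0719). With it the count of members with a rhythm in NRF was 8 in place of 4. The part of tendon cells in these rhythms was not tested.

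Col13a1 (gene 12817, chromosome 10, 61838234 to 61979206), a membrane collagen of the neuromuscular junction, was the 1 member whose rhythm differed between regimens (limma adjusted p = 0.0328), against 13.1% of all genes. At an unadjusted p under 0.05 there were 3 (28.7% of all genes). In NRF it was highest at ZT24 with 1.48, 1.63, 1.95 and 2.19 CPM and lowest at ZT8 with 0.617, 1.07, 1.37 and 1.78. In DRF it was highest at ZT8 with 1.01, 1.61, 2.10 and 2.16 and lowest at ZT4 with 0.560, 0.958, 1.25 and 1.504. High and low groups overlapped in both. The fitted peak lay at ZT0.712 in NRF (swing 0.34, limma adjusted p = 0.0483) and at ZT13.3 in DRF (0.18, 0.297). The gene averaged 43.9 reads per library, and its SD between replicates was 1.57 times that of counting alone. The difference was lost with total reads as the library size, without ZT0, without ZT24 and with the tenocyte score as a covariate (adjusted p up to 0.139). The rhythm in NRF was lost in 10 of 13 alternatives and in 35 of 56 fits without 1 library (adjusted p up to 0.195).

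Col28a1 passed in DRF with a peak at ZT23.5 (swing 0.45, limma adjusted p = 0.0468). The call was lost in 6 of 13 alternatives and in 15 of 56 fits without 1 library. With the endothelial score as a covariate its limma adjusted p was 0.303. Summed Schwann markers in DRF lay between 384 and 1088 CPM at ZT24 and between 146 and 510 at ZT0, the same clock time. None of the 6 Schwann markers passed the rhythm test in either regimen, and their part in this call was not tested. The remaining members passed no test. Among them were the type VI chains, whose DRF swing was 0.40 for Col6a1 (limma adjusted p = 0.15), 0.42 for Col6a2 (0.22) and 0.28 for Col6a3 (0.4), the type VIII chains Col8a1 and Col8a2, the anchoring Col7a1, and the FACIT genes Col12a1 (0.69, 0.0773) and Col14a1 (0.57, 0.154). Col6a1 ranged from 63.0 to 250.2 CPM in NRF (median 129.8) and from 76.2 to 193 in DRF (median 135). Col12a1, a FACIT of tendon and fibre sheaths, ranged from 8.77 to 40.4 in NRF and from 10.8 to 40.7 in DRF, and Col14a1 from 10.496 to 46.1 and from 9.37 to 34.3. The regimens overlapped in these 3 genes. Col7a1, the anchoring fibril of skin, was present at 5.06 to 20.1 CPM, and Col23a1 at 1.61 to 8.51. ZT24 repeats the clock time of ZT0, and 0 of 36 members differed between them in NRF or in DRF by limma, against 0% and 0.274% of all genes. At an unadjusted p under 0.05 the counts were 0 and 6 of 36, against 7.77% and 19% of all genes.

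In the authors' deposited table of rhythm tests, which lists 42 of the 44 members, 1 was under an adjusted p of 0.05 in NRF (7.16% of all genes listed) and 3 in DRF (15.9%). By the authors' deposited table Col5a3 had 0.0102 in NRF and 3.48e-05 in DRF, and in DRF Col27a1 had 1.55e-06 and Col22a1 0.0136. The authors' deposited table gives Col27a1 in NRF 0.13.

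Libraries of the same group lay far apart in the collagen genes. Their median SD between replicates was 0.35 on the log2 scale against 0.17 for all genes. Of the 36 members, 35 lay above the median of all genes and 25 above 0.32, a level that 10% of all genes exceeded. Col1a1 had the widest spread at 0.63, which is 46.8 times the SD that counting error gives, followed by Col1a2 at 0.59 and Col3a1 at 0.53. Within a group the highest Col1a1 library was 1.44 to 6.29 times the lowest, with a median of 2.25. Col20a1 had the narrowest spread at 0.11, with levels from 11.2 to 17.7 CPM.

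That spread was shared. After each group mean was removed, the first principal component of the 36 members carried 42.1% of their variance, against 22.1% for all genes tested, and 32 of 36 members loaded on it with the same sign. The exceptions were Col7a1, Col9a1, Col19a1 and Col20a1. Of the 630 pairs of members, 506 had a positive correlation and 166 had one above 0.5, with a median r of 0.31. These are descriptions over 56 libraries that share their groups and scaling, and pairs of all genes were not counted for comparison. The 42.1% and 22.1% come from sets of unlike size, and other sets of 36 genes were not measured. Whether 42.1% is high for a set of that size was therefore not tested.

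Col1a1 was set against each of the 35 other members, with 100000 permutations of libraries within groups and adjustment over the 35 pairs. In 23 pairs the correlation passed, all of them positive. The share of all genes that would pass with Col1a1 was not counted. For Col1a2 r was 0.991 and rho 0.984 (both permutation p = 1e-05, the smallest that 100000 can give, adjusted p = 4.37e-05 and 5e-05), and r was 0.989 without the 2 libraries farthest from the median. For Col11a1 r was 0.882 and rho 0.898 (both permutation p = 1e-05, adjusted 4.37e-05 and 5e-05), with r at 0.869 without those 2. Col16a1 (r 0.871, rho 0.861), Col12a1 (0.844, 0.880), Col11a2 (0.794, 0.816), Col8a2 (0.783, 0.841) and Col2a1 (0.764, 0.806) had the same permutation p and adjusted p, and r between 0.762 and 0.847 without the 2. Type VI, III and V genes followed more loosely. Col3a1 had r 0.641 and rho 0.559 (permutation p = 0.00017 and 0.0004, adjusted 0.000541 and 0.00117), and 0.593 without the 2. Col4a1 had r 0.481 and rho 0.452 (permutation p = 0.00213 and 0.0033, adjusted 0.00414 and 0.00637), and again 0.481 without the 2. The rhythmic Col27a1 did not pass (r 0.215, rho 0.224, permutation p = 0.166 and 0.152, adjusted 0.208 and 0.184), nor did Col4a3 (r 0.151, rho 0.157, permutation p = 0.353 and 0.324, adjusted 0.389 and 0.366).

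The 36 members were then set against the scores of 8 marker lists of cell types and a trend with gene length, 324 pairs in 1 family with the same permutation test. Of these pairs 76 passed, 63 positive and 13 negative. How many of all genes would pass with these lists was not counted. The counts by list are therefore not shown to be particular to collagens. The adipocyte list passed with 1 member, Col14a1 (r 0.387). The lists were not independent of each other: the fibroblast and macrophage scores correlated at r 0.894 over the 56 libraries. None of the 8 lists holds a collagen gene.

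Tenocyte markers, among them the tendon cell genes Tnmd and Scx, went with 12 members. Col11a1 had r 0.936 and rho 0.929, Col8a2 0.922 and 0.929, and Col12a1 0.917 and 0.932. Col11a2 had 0.881 and 0.872, Col1a2 0.880 and 0.885, and Col1a1 0.853 and 0.881. Each of these 6 had a permutation p of 1e-05 and an adjusted p of 9e-05, and r stayed between 0.840 and 0.924 without the 2 libraries farthest from the median. Types I, XI and XII thus ran between replicates with the tendon list.

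Fibroblast markers went with 21 members, led by Col5a2 (r 0.822, rho 0.802), Col5a1 (0.781, 0.764), Col6a3 (0.774, 0.764), Col14a1 (0.773, 0.744) and Col6a1 (0.770, 0.759). All 5 had permutation p = 1e-05 and adjusted p = 9e-05, and r from 0.733 to 0.788 without the 2 farthest libraries. The macrophage list went with 19 members, among them Col5a2 (r 0.800), Col5a1 (0.752) and Col6a1 (0.750). Its highest value was with Col14a1 (r 0.858, rho 0.83, permutation p = 1e-05, adjusted 9e-05, r 0.847 without the 2).

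Col4a1 and Col4a2 were closest to the endothelial list, with r 0.674 and 0.667 and rho 0.652 and 0.635 (permutation p = 1e-05 to 2e-05, adjusted 9e-05 for both r, 0.646 and 0.632 without the 2). They also passed with pericyte and smooth muscle markers (r 0.615 and 0.608). In the opposite direction Col9a1 (r -0.770, rho -0.755), Col19a1 (-0.722, -0.722) and Col7a1 (-0.711, -0.757) were low where endothelial markers were high, with permutation p = 1e-05, adjusted p = 9e-05 and r of -0.771, -0.678 and -0.667 without the 2. The same 3 genes were also negative with the muscle fibre list (r -0.536, -0.709 and -0.576).

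Col23a1, a membrane collagen, and Col28a1 went with the Schwann list. Col23a1 had r 0.860 and rho 0.835 (permutation p = 1e-05, adjusted 9e-05), and 0.847 without the 2 farthest libraries. Col28a1 had r 0.684 and rho 0.628 (permutation p = 2e-05 and 6e-05, adjusted 0.000171 for r), and 0.618 without the 2. The summed Schwann level spanned 96.5 to 1088 CPM over the libraries. With gene length, Col24a1 (r 0.403) and Col7a1 (0.398) passed.

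**Figure D4:**
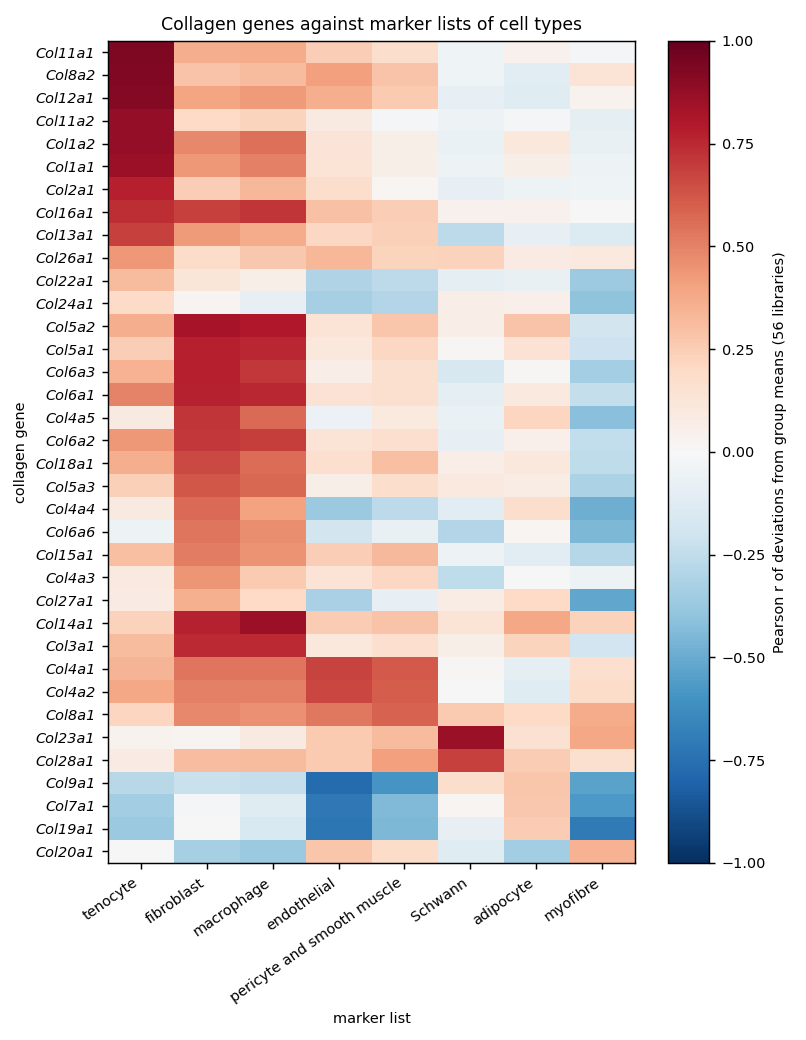
Pearson r between the deviations of each tested collagen gene (rows) and of 8 marker list scores (columns) from their group means over 56 libraries; red is positive and blue negative. Col11a1, Col8a2 and Col12a1 are darkest under tenocyte, Col5a2 under fibroblast, Col14a1 under macrophage, Col4a1 under endothelial and Col23a1 under Schwann, and Col9a1, Col19a1 and Col7a1 are blue under endothelial.

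**Figure D5:**
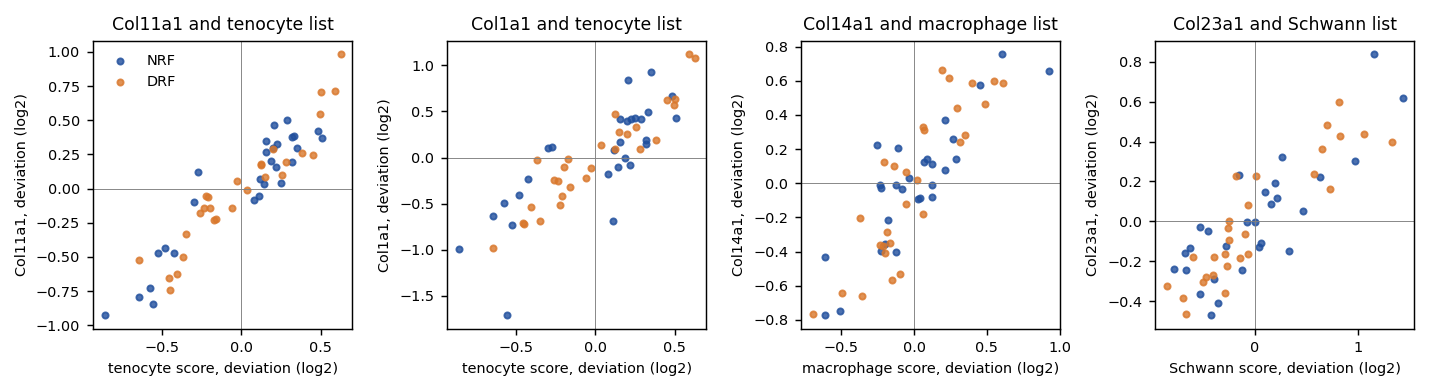
Deviation of a collagen gene from its group mean (log2, vertical) against that of a marker list score (horizontal), with 1 point per library, NRF blue and DRF orange, for Col11a1 and Col1a1 with the tenocyte list, Col14a1 with the macrophage list and Col23a1 with the Schwann list. In each panel the points of both regimens run from lower left to upper right, with r of 0.936, 0.853, 0.858 and 0.860.

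The part of these cell types in the collagen levels was not tested. Leaving out the library lowest in Col1a1, replicate 2 of NRF at ZT20 (78.8 CPM), left 22 of the 35 correlations with Col1a1 past the threshold, and other scalings of the libraries gave 23 or 24.

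The machinery around collagen was counted from lists of pathway genes. Of 19 tested genes that fold and modify the chains, 5 had a rhythm in NRF (15.1% of all genes) and 10 in DRF (48.7%), the latter a share near that of all genes. P4ha1 and P4ha2, subunits of the prolyl hydroxylase that stabilises the helix, peaked at ZT21.7 and ZT20.8 in NRF (limma adjusted p = 0.00138 and 0.000385), and the P4ha1 rhythm differed in DRF, where it peaked at ZT15.3 (difference 0.003). Creb3l1, a transcription factor of the endoplasmic reticulum that drives type I collagen genes in bone, peaked at ZT1.32 in NRF with a swing of 0.89 (6.22e-05) and at ZT22.8 in DRF with 0.45 (0.0398). P4hb, the other subunit of that enzyme, and P3h1, a prolyl hydroxylase of another site, passed in DRF (peaks ZT15.5 and ZT14.4, 0.000437 and 0.000162), and Fkbp10, a chaperone of the chains, in NRF (peak ZT11.1, 0.00077).

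Of 11 tested genes that trim and cross-link collagen, 1 had a rhythm in NRF (15.1% of all genes) and 5 in DRF (48.7%), so neither share stood above that of all genes. Pcolce, an enhancer of propeptide removal, peaked at ZT15.5 in DRF (limma adjusted p = 0.0101) and Adamts2, which removes the propeptide of type I, at ZT16.1 (0.0409). Pcolce2 passed in DRF (0.0108), as did the cross-linking enzymes Loxl3 (0.0467) and Loxl4 (0.0363, and 0.0205 in NRF), while the rhythm of Adamts3 differed between regimens (0.0335). Of 15 fibril-associated proteins only Lum passed, in DRF (peak ZT14.2, limma adjusted p = 0.0117), against 48.7% of all genes in DRF and 15.1% in NRF. Of 12 tested genes of collagen breakdown 5 passed in NRF (15.1% of all genes) and 7 in DRF (48.7%). Mmp14, a membrane collagenase, had a swing of 0.83 in NRF (0.000151) and 0.90 in DRF (1.22e-05), with peaks at ZT2.16 and ZT23.6. Timp3, an inhibitor of such proteases, peaked at ZT13.7 and ZT13.6 (6.34e-09 and 2.1e-06). Timp4 had a swing of 1.39 in NRF (0.00112) and Mmp15 one of 0.44 (0.00012), and Mrc2, an uptake receptor for collagen fragments, and Timp2 passed in DRF (0.00142 and 0.00472). The Mmp14 peaks thus lay near lights on and those of Timp3 after lights off in both regimens.

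Of the 9 collagen receptors tested 4 were lower in DRF, against 7.53% of all genes. They were the integrin chains Itgb1 (-0.14, limma adjusted p = 0.00613) and Itga1 (-0.24, 0.0312), the kinase Ddr1 (-0.13, 0.0138) and the adhesion receptor Adgrg6 (-0.14, 0.0279). A rhythm was called for 5 of the 9 in NRF (15.1% of all genes) and for 3 in DRF (48.7%). The receptors Cspg4 and Itga11 had one in NRF (limma adjusted p = 0.0068 and 0.00854) and in DRF (0.00326 and 0.0115), and Ddr1 in both as well (0.00705 and 1.49e-05). In 18 tested genes of TGF-beta control, the main inducer of collagen genes, 7 had a rhythm in NRF (15.1% of all genes) and 9 in DRF (48.7%), the latter again near the share of all genes. The rhythm differed between regimens for 3 of the 18, against 13.1% of all genes, among them Smad3 (limma adjusted p = 0.0065) and Tgfb2 (0.0172). Tgfb2 passed in DRF (swing 0.96, 5.47e-06) and Smad3 in NRF (0.69, 2.27e-05). Tgfbr3 and Smad7 had a rhythm in both regimens. Smad2 alone of the 18 was lower in DRF, by a log2 difference of -0.14 (limma adjusted p = 0.000707), against 7.53% of all genes. Of 10 basement membrane partners of type IV, Nid1 alone had a rhythm in DRF (peak ZT19.2, limma adjusted p = 0.0215), against 48.7% of all genes. None had a rhythm in NRF (15.1% of all genes). Agrn alone was lower in DRF, by a log2 difference of -0.16 (limma adjusted p = 0.0204), against 7.53% of all genes.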

How the data were processed

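RNA from gastrocnemius was poly(A)-selected and sequenced as paired reads of 100 bases on a BGISEQ-500, per the labels' protocols. Per the submitters' processing notes the tools were RSEM, HISAT2 and Bowtie2, with builds mm10 and GRCm38.p6. The deposited score of the authors, headed TPM, is not TPM: per the values it is a log-compressed scaled count divided by gene length, so it was inverted to read counts (1634 genes set the scale). The authors also deposited rhythm tests, which per the file headers are JTK, LS and their combination meta2d, each with p-values and adjusted q-values. The meta2d q-value is the one quoted. The recovered gene length equalled the GENCODE M21 exon union for 94.2% of 17016 genes. Tests used limma 3.58.1 (R 4.3.3) on log2(CPM + 1) for 12025 genes with a mean of at least 1 CPM, with all 56 libraries in 1 fit, Benjamini-Hochberg adjustment over all of them and a threshold of 0.05. Differences on this scale understate those of low genes. The design table had foreseen TPM, and the inversion replaced it. Correlations used deviations from group means, in Python 3.11.15. The scripts were tested on simulated data. Named were every collagen past a test, the main members of types I, III to VI, XII to XV, XVIII and XXII, those next to the filter, and at most 6 genes past the threshold in each pathway list. The markers Acta1, Ckm, Scx, Rgs5 and Chad were named after their values were seen. Alternatives were other scalings, pseudocounts, filters, weights, times left out, a replicate block, marker scores as covariates and each library left out. The collagen genes and all lists were chosen with earlier results of these data known. Replicate numbers only name libraries. Some genes of the lists are not reported here.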

Additional observations from a re-analysis of the deposited data

Results flagged for a closer look

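In 154 groups of 4 libraries over 11 collagen genes, 7 had 1 library far from the other 3, where chance marks about 1 in 20 groups. In DRF at ZT0 replicate 3 held 841 CPM of Col1a1 against 275 to 341 in the others, and 878 of Col1a2 against 334 to 383. In NRF at ZT24 replicate 4 held 238 CPM of Col1a2 against 563 to 619. In NRF at ZT20 replicate 2 held 24.2 CPM of Col5a3 against 51.7 to 56.9, and it was also lowest in Col1a1. In DRF at ZT8 replicate 2 held 72.0 CPM of Col22a1 against 43.0 to 44.9. In DRF at ZT20 replicate 1 held 1.44 CPM of Col13a1 against 1.54 to 1.55, a small difference that was flagged because the others lay very close together. In NRF at ZT24 replicate 3 held 2.56 CPM of Col4a3 against 3.198 to 3.30. The rhythm of Col13a1 differed between the regimens by a test of the difference itself (limma adjusted p = 0.0328), with a swing of 0.34 in NRF and 0.18 in DRF.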

How the results depend on the processing

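Against 2 members lower on average, 4 with a rhythm in NRF, 10 in DRF, 1 rhythm difference, 2 pairs of gene and time and a first component of 42.1%, these counts moved and no call reversed. Total reads as library size gave 5 on average, 0 rhythm differences, 1 pair and 47.2%, and quantile normalization gave 1 on average and 1 pair. A pseudocount of 0.25, the log2 of the deposited value and removal of the length trend each gave 1 on average. No filter gave 1 on average, 2 in NRF and 35.3%, and a mean of at least 5 CPM, which tests fewer genes, gave 0 on average, 2 in NRF, 0 differences, 0 pairs and 54.7%. Array weights gave 5 on average, 2 differences and 7 pairs. Without ZT24 there were 1 on average, 2 in NRF, 4 in DRF and 0 differences, and without ZT0 1, 2 in NRF and 0 differences. A harmonic of 12 h gave 2 in NRF. The tenocyte score gave 4 on average, 8 in NRF, 0 differences and 1 difference of ZT24 from ZT0 in DRF. Apart from the construction of the alternative, the cause was not tested.

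Leaving out 1 library gave 1 to 3 on average, 2 to 4 in NRF, 6 to 12 in DRF, 0 to 2 rhythm differences, 1 to 3 pairs, 0 to 0 members between ZT24 and ZT0 and 40.6% to 43.3%. The low of 6 came without DRF at ZT12 replicate 2 or replicate 4. The rhythm difference was lost without NRF at ZT12 replicate 4 or NRF at ZT16 replicate 1 or replicate 2, and 2 were found without DRF at ZT8 replicate 3. With the replicate block the counts were 2 on average, 3 in NRF, 9 in DRF, 1 difference and 2 pairs, with 42.1%. The numbers do not pair the libraries: deviations of same-numbered libraries correlated at a mean r of -0.0166, and 8 of 56 libraries were closest to their own number. Below about 1 CPM depth limits what can be seen.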
